A study of Homo sapiens with 2 samples.

Results

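The miR-34 hairpins (hsa-mir-34a, hsa-mir-34b and hsa-mir-34c) and the hairpins of the miR-192 group (hsa-mir-192, hsa-mir-194-1, hsa-mir-194-2 and hsa-mir-215) were followed in small RNA sequencing of hCMEC/D3. They were chosen by name, as hairpins whose genes are known targets of the transcription factor p53. The rule uses no measured value, although it was written with earlier results of these data known. All table entries of these 7 precursors were taken, of 1600 precursors in all. They gave 12 entries and 11 mature miRNA names. The line derives from human brain microvascular endothelium, stands in for the blood-brain barrier in culture, and was immortalised with hTERT (the catalytic subunit of telomerase) and the SV40 large T antigen. There were 2 libraries, labelled replicate 2 and replicate 8 of this line, with no treatment named and no second group. Both libraries therefore carry the same immortalising genes, and no culture without them was measured. The labels do not say whether the replicates were separate cultures, so differences between them may be technical. The labelled endothelial identity was checked on miR-126-3p, the endothelial miRNA made from an intron of EGFL7, which stood at 112226 ± 4003 CPM (counts scaled to a fixed library total, SD, n = 2). The other arm of its hairpin, miR-126-5p, stood at 694 ± 21.9 CPM.

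A miRNA is cut from a hairpin as a duplex, and either the 5′ arm (5p) or the 3′ arm (3p) is loaded into an Argonaute protein, where bases 2 to 8, the seed, pair with target mRNAs. p53 is a stress-activated transcription factor that arrests the cell cycle or starts apoptosis. The miR-34 genes are direct p53 targets that act against cyclin-dependent kinases and BCL2. miR-34a is expressed in many tissues, including endothelium, where it is known to rise with senescence, whereas miR-34b and miR-34c come from one transcript and are best known from testis and multiciliated epithelium. miR-192, miR-194 and miR-215 are abundant in gut, liver and kidney, and p53 raises miR-192 and miR-215. SV40 large T antigen binds p53 and blocks its transcriptional activity.

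The matched mature sequences show which of these miRNAs share a seed and which could share reads, and so bear on the counts below. They are taken from RefSeq (GRCh38.p14), written 5′ to 3′ with the seed in capitals. All 7 hairpins and 9 of the 11 mature names matched that table. The names without an exact match were miR-34c-5p and miR-215, and miR-215 is listed in the count table without an arm. Whether miR-34c-5p shares a seed or reads with another member was therefore not assessed. The 5p arm of miR-215 is shown for comparison.
miR-34a-5p: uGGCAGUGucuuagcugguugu
miR-34b-5p: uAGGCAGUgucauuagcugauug
miR-34b-3p: cAAUCACUaacuccacugccau
miR-34c-3p: aAUCACUAaccacacggccagg
miR-192-5p: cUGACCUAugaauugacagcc
miR-215-5p: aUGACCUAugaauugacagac
miR-194-5p: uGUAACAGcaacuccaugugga
miR-194-3p: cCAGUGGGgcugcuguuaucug

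miR-192-5p and miR-215-5p carry the same seed, UGACCUA, and are equal at 19 of 21 positions. Counted from the 5′ end of miR-192-5p, the differences are C1A and C20A. miR-34b-3p and miR-34c-3p are equal at 17 of 21 positions once miR-34c-3p is shifted by 1 base, so their seeds are offset by 1 base as well. The seed of miR-34a-5p, GGCAGUG, and that of miR-34b-5p, AGGCAGU, are offset in the same way. How many mismatches the counting allowed is not given in the sources used here, so the low counts of miR-215 beside miR-192-5p are uncertain, as is the split between miR-34b-3p and miR-34c-3p.

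The hairpins were located by exact sequence match to GRCh37. MIR34A lies on chromosome 1 at 9211727 to 9211836 (minus strand), in an exon of the lncRNA MIR34AHG. MIR34B lies on chromosome 11 at 111383663 to 111383746 and MIR34C at 111384164 to 111384240 (plus strand), 417 bases apart, both in an exon of the lncRNA MIR34BHG and opposite an intron of BTG4. MIR192 lies on chromosome 11 at 64658609 to 64658718 and MIR194-2 at 64658827 to 64658911 (minus strand), 108 bases apart. Both are inside the lncRNA MIR194-2HG, where 1 of 3 spanning transcripts has an exon at each. MIR215 lies on chromosome 1 at 220291195 to 220291304 and MIR194-1 at 220291499 to 220291583 (minus strand), opposite introns of IARS2. The 7 hairpins thus form 3 pairs of neighbours, with MIR34A alone.

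These miRNAs were a small part of the small RNA in these cells. After repeated entries of a mature name were reduced to the highest, the libraries held 2721287 counts (replicate 2) and 2727675 counts (replicate 8), and the members held 1394 and 1530 of them, or 0.0512% and 0.0561%. Taking detection as at least 10 counts in each library, 6 of the 11 names were detected, against 26.6% of all 2042 mature names. The detected names were miR-34a-5p, miR-34c-5p, miR-192-5p, miR-194-5p, miR-194-3p and miR-215. miR-34c-3p reached the threshold in replicate 2 alone, and miR-34b-3p had 6 and 8 counts. miR-34a-3p and miR-192-3p had no count in replicate 2 and 1 count in replicate 8. miR-34b-5p had no count in either library, for which 3 counts set a limit of 1.10 CPM in each. The labels name no tags for single molecules, so this limit and all intervals cover counting error only.

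**Figure D1:**
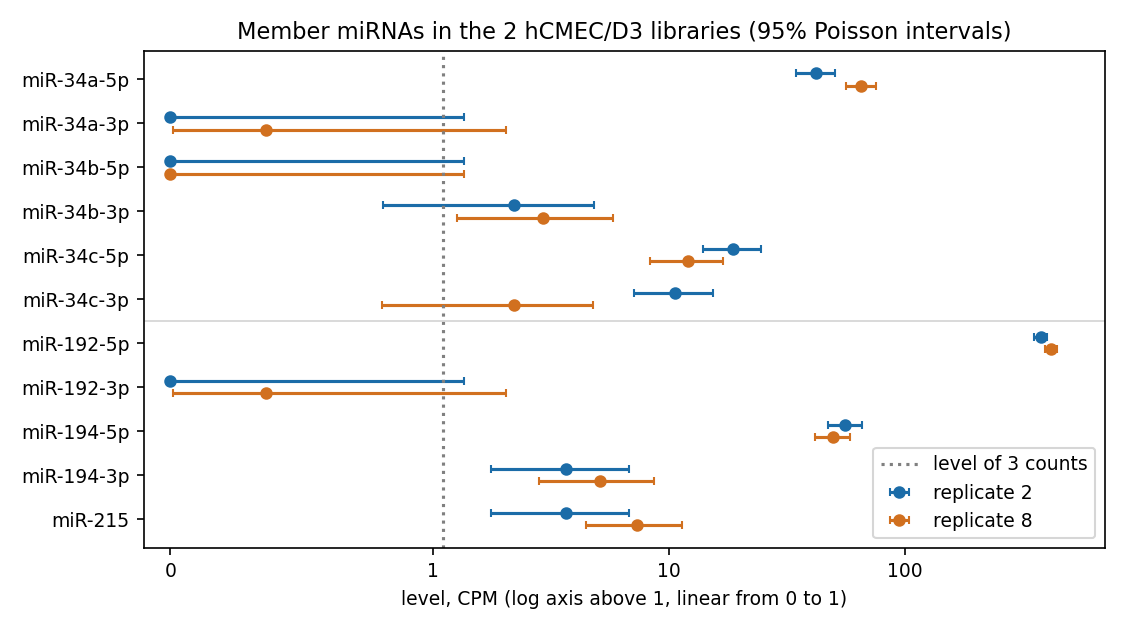
Level of each of the 11 member miRNAs in CPM (horizontal axis, logarithmic above 1) in replicate 2 (blue) and replicate 8 (orange); bars are 95% Poisson intervals and the dotted line is the level of 3 counts. miR-192-5p stands far to the right at 376 and 416 CPM, and miR-34b-5p sits at 0 in both libraries.

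Within the miR-34 family, miR-34a-5p was the main product. It had 114 counts in replicate 2 and 178 in replicate 8, or 41.9 CPM (95% Poisson interval 34.6 to 50.3) and 65.3 CPM (56.0 to 75.6). The intervals do not overlap, and replicate 8 was the higher. Its mean of 53.6 ± 16.5 CPM (SD, n = 2) placed it at rank 262 of 2042 names, close to the median of all detected names, 49.9 CPM. The family summed to 73.5 CPM in replicate 2 and 82.9 in replicate 8. miR-34a-5p made up 57.0% and 78.8% of this. The family sums were closer to each other than the levels of miR-34a-5p, since both arms of miR-34c had fewer counts in replicate 8.

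miR-34c, the testis and airway member, was present at a lower level through both of its arms. miR-34c-5p had 51 and 33 counts (18.7 and 12.1 CPM) and ranked 384 by its mean of 15.4 ± 4.70 CPM. miR-34c-3p had 29 and 6 counts (10.7 and 2.20 CPM). Both arms were lower in replicate 8, and the intervals overlapped for the 5p arm alone. miR-34b, which lies beside miR-34c in the same host transcript, was seen only as miR-34b-3p, at 2.20 and 2.93 CPM. miR-34c-5p exceeded miR-34b-3p 7.92-fold in replicate 2 and 3.94-fold in replicate 8, a log2 ratio of 2.48 ± 0.71 (SD, n = 2, 0.5 counts added). Ligation of adaptors differs between miRNAs, so a ratio of different miRNAs within a library describes captured reads.

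The group of miR-192, miR-194 and miR-215 was higher than the miR-34 family in both libraries, at 439 CPM (95% Poisson interval 414 to 464) and 478 CPM (452 to 505). miR-192-5p carried 85.6% and 87.0% of it. This miRNA, a regulator of cell-cycle genes that is best known from gut, liver and kidney, had 1022 and 1134 counts, or 376 CPM (353 to 399) and 416 CPM (391.9 to 440.7). Its mean of 396 ± 28.4 CPM (SD, n = 2) gave rank 133 of 2042. The level was close in the libraries and well above all other members in each.

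miR-194-5p, known from intestinal epithelium and hepatocytes, had 152 and 135 counts in its higher entry, or 55.9 and 49.5 CPM. Its intervals, 47.3 to 65.5 and 41.5 to 58.6, overlap. The opposite arm miR-194-3p, listed for the miR-194-2 hairpin, had 10 and 14 counts (3.67 and 5.13 CPM). miR-215 had 10 and 20 counts (3.67 and 7.33 CPM), with intervals of 1.76 to 6.76 and 4.48 to 11.3 that overlap. Although miR-215 and miR-192-5p share a seed, nearly all reads with it came under the name miR-192-5p: miR-215 counts were 0.978% of the miR-192-5p counts in replicate 2 and 1.76% in replicate 8.

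The order of the levels was therefore miR-192-5p first in both libraries, with a gap. miR-34a-5p and miR-194-5p followed and could not be ordered: miR-194-5p was the higher in replicate 2 and miR-34a-5p in replicate 8. This rests on the higher entry of miR-194-5p alone. With both entries added miR-194-5p would be the higher in both libraries, although reads that match both hairpins may then be counted in each. miR-34c-5p came next, with intervals (13.95 to 24.6 and 8.33 to 17.0 CPM) below those of both. By mean level miR-34c-3p, miR-215, miR-194-3p and miR-34b-3p followed, although in replicate 8 miR-34c-3p was the lowest of these. Below them in both libraries were miR-34a-3p, miR-192-3p and miR-34b-5p, with at most 1 count in a library. The interval of miR-34c-5p overlapped that of miR-34c-3p in replicate 2 and those of miR-215 and miR-194-3p in replicate 8. Mature lengths were 21 to 23 bases where a sequence was matched.

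**Figure D2:**
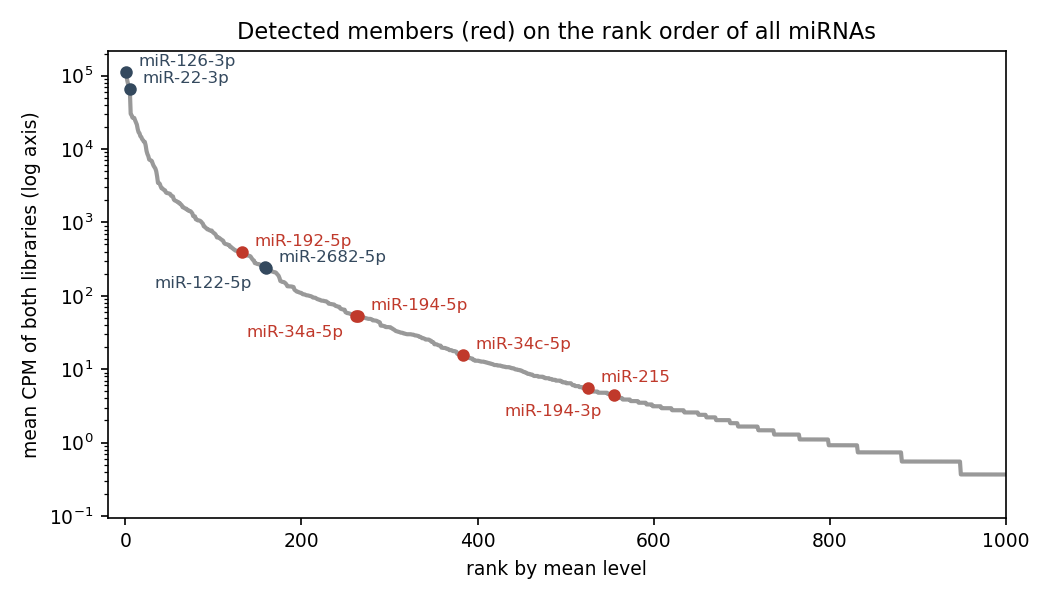
Mean level of each miRNA (vertical axis, CPM, logarithmic) against its rank among all names (grey line), with the 6 detected members in red and 4 reference miRNAs in dark blue. miR-192-5p is at rank 133, miR-34a-5p and miR-194-5p are at ranks 262 and 264, and miR-126-3p is at the top.

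The level of each detected member was set beside its nearest neighbour among non-members, by distance on log2(CPM + 1) over the 2 libraries. miR-192-5p was nearest to miR-125b-1-3p (1012 and 1183 counts), the minor arm of a miR-125b hairpin. miR-34a-5p was nearest to miR-323a-3p (111 and 155 counts), of the imprinted cluster on chromosome 14. miR-194-5p was nearest to miR-18a-5p of the miR-17-92a cluster (154 and 138 counts), miR-34c-5p to miR-5001-3p (47 and 32), miR-194-3p to miR-4781-3p (9 and 14), and miR-215 to miR-598, which had the same counts. With 2 libraries such likeness is one of level alone.

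The neighbouring hairpins were not captured at equal levels. miR-192-5p exceeded the miR-194-2 entry of miR-194-5p 6.70-fold in replicate 2 and 8.37-fold in replicate 8 (log2 ratio 2.91 ± 0.23, SD, n = 2). On chromosome 1 the order was the opposite: miR-215 stood below the miR-194-1 entry, with log2 ratios of -3.40 and -2.42 (mean -2.91 ± 0.69). Reads that lie within the mature miR-194-5p can come from either hairpin. The second ratio may therefore take in reads that belong to chromosome 11, and the first reads that belong to chromosome 1.

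The hairpins of miR-194 show where such reads could be told apart. The mature miR-194-5p is in capitals, and it is the longest run that the hairpins have in common, 22 bases.
miR-194-1: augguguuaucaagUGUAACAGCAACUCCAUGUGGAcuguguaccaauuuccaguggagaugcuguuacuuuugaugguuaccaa
miR-194-2: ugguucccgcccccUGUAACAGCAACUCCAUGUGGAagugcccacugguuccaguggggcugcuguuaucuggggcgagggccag

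A read that runs past either end of the mature sequence meets a different base in each hairpin: before it, G in miR-194-1 and C in miR-194-2, and after it, C and A. Single reads and their end bases were not examined, so the counts of the entries do not show the hairpin of origin. The table gave 110 and 109 counts of miR-194-5p to miR-194-1 but 152 and 135 to miR-194-2. The miR-194-2 entry was thus the higher by 42 counts in replicate 2 and 26 in replicate 8, and the miR-194-1 entry was at 72.4% and 80.7% of it. Of 48 mature names with several entries and at least 100 summed counts, 43 had a smallest entry over 90% of the largest. miR-194-5p, at 76.3% over both libraries, was one of the other 5, and the rest of these were at 27.8% or less. Whether the hairpins of each name differ beside the mature sequence was not examined, so the 48 names may not be alike in this. miR-194-2 was also the hairpin with the abundant neighbour miR-192, and whether the gap is tied to that neighbour was not tested. How the counter assigned reads that match both hairpins is not given in the sources used here.

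Of the 5 hairpins with both arms listed, 4 had an arm above 90% in both libraries, and 3 of these used the 5p arm. The 5p arm held all 114 counts of miR-34a in replicate 2 and 99.4% in replicate 8. For miR-192 it held 100% and 99.9%, and for miR-194-2 it held 93.8% (95% Wilson interval 89.0 to 96.6) and 90.6% (84.8 to 94.3). Of 240 hairpins in the table with at least 20 counts in each library, 65.8% had an arm above 90% in both, and under this filter, which miR-34b does not meet, the members were 3 of 4. The miR-34b hairpin went the other way, with all 6 and 8 counts on the 3p arm, although so few counts allow a 3p share as low as 61.0% and 67.6%.

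miR-34c was the member with mixed arms. Its 5p arm held 63.8% of 80 counts in replicate 2 (95% Wilson interval 52.8 to 73.4) and 84.6% of 39 counts in replicate 8 (70.3 to 92.8). The change of 20.9 percentage points compares with a median absolute change of 0.788 points over the 240 hairpins. That median is not matched for counts or for mixed arms, and 65.8% of those hairpins had an arm above 90% in both libraries. Fisher's exact test, two-sided and added after the counts were seen, gave p = 0.0198 and an adjusted p of 0.104 over those hairpins, so the change did not pass the threshold of 0.05. In the same test 17.5% of the hairpins passed. Neither miR-34a, miR-192 nor miR-194-2 passed, with adjusted p of 0.654 or more.

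**Figure D3:**
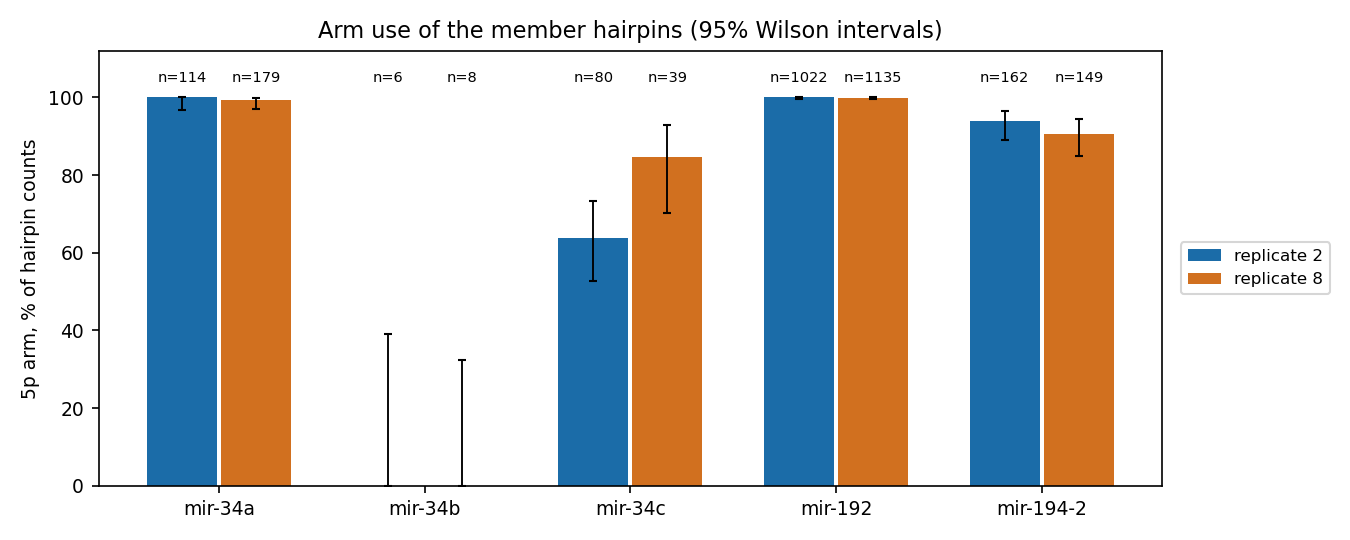
Share of the 5p arm (vertical axis, % of the counts of a hairpin) for the 5 member hairpins with both arms listed, in replicate 2 (blue) and replicate 8 (orange), with 95% Wilson intervals and the counts behind each bar above it. miR-34b has no 5p count, and miR-34c goes from 63.8% to 84.6%.

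Whether the members differed between the libraries was asked with a two-sided exact binomial test of each miRNA's split of counts against the library totals, over all 695 names with at least 10 summed counts. It compares these libraries, not conditions. Of the 8 members tested, 2 had a Benjamini-Hochberg adjusted p under 0.05, against a background of 34.2% of all names (10.8% higher and 23.5% lower in replicate 8). Among the 518 names within the members' range of summed counts, 14 to 2156, the background was 24.9%. The members' share is thus near the background. The excess of lower calls over all names depended on the scale: 75 were higher and 163 lower with total counts, 111 and 116 with TMM-scaled sizes, and 115 and 107 with DESeq2 size factors.

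The members that passed went in opposite directions although both belong to the miR-34 family. miR-34a-5p was higher in replicate 8, with a log2 ratio of 0.64 (95% exact interval 0.29 to 0.99, adjusted p = 0.00103 by the exact binomial test). miR-34c-3p was lower in replicate 8, with a log2 ratio of -2.19 (-3.84 to -0.98, adjusted p = 3.8e-04 by the same exact test). The other arm of that hairpin, miR-34c-5p, had a log2 ratio of -0.62 (-1.31 to 0.03, exact test adjusted p = 0.124).

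In the miR-192 group no member passed. miR-192-5p had a log2 ratio of 0.15 (0.02 to 0.27) with an exact test adjusted p of 0.0547, and with TMM-scaled library sizes it passed, at 0.24 and adjusted p = 4.45e-04. This scaling raised the median log2 ratio of all 695 names from -0.11 to -0.02. miR-194-5p was at -0.17 (-0.52 to 0.17), miR-215 at 0.96 (-0.17 to 2.26), miR-194-3p at 0.46 (-0.79 to 1.81) and miR-34b-3p at 0.38 (-1.30 to 2.22). The last 3 had at most 30 summed counts, and their intervals take in differences of more than 2-fold in the direction of replicate 8. That of miR-34b-3p takes in more than 2-fold in the direction of replicate 2 as well. The remaining 3 members had too few counts to be tested. The median log2 ratio of the 8 tested members was 0.27.

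**Figure D4:**
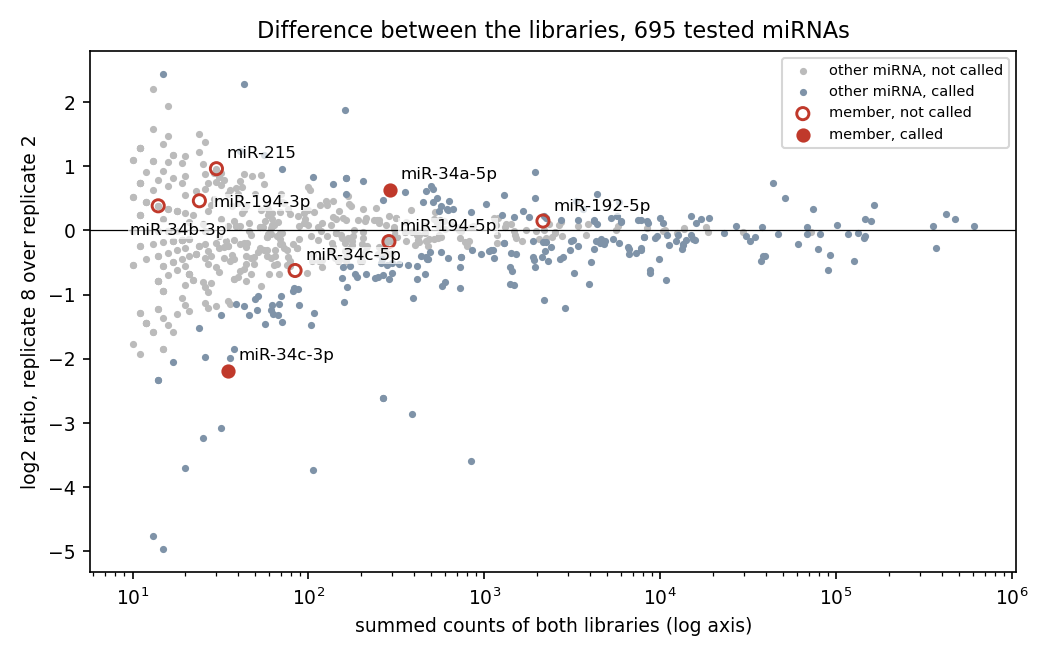
Log2 ratio of replicate 8 over replicate 2 (vertical axis) against the summed counts of both libraries (horizontal axis, logarithmic) for the 695 tested miRNAs; members are red and filled where they passed the adjusted threshold. miR-34a-5p lies above 0 at 0.64 and miR-34c-3p below it at -2.19, and the spread of all miRNAs widens at low counts.

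Other miRNAs carry the seeds of the miR-34 family. Those with the miR-34a-5p seed, miR-449a and miR-449b-5p, known from multiciliated cells, had 6 and 4 counts and 3 and 1 counts. With the seed of miR-34b-5p, which was itself at 0, miR-449c-5p had 26 and 27 counts (9.73 ± 0.24 CPM). miR-2682-5p (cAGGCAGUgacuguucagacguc), with the same 7 seed bases, had 527 and 774 counts (193.7 and 283.8 CPM), more than the whole miR-34 family in each library. It equals miR-34b-5p at 11 of 23 positions. It was higher in replicate 8, with a log2 ratio of 0.55 (exact binomial adjusted p = 9.58e-11). No non-member in the RefSeq table shared the seeds of miR-192-5p or miR-194-5p.

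Since miR-192, miR-194 and miR-215 are known from epithelium and liver, and miR-34b and miR-34c from ciliated cells, the markers of those cell types were read in the same libraries. Of 8 epithelial miRNAs 4 were detected, and the list summed to 142 and 89.8 CPM. miR-141-3p had no count in either library, and miR-429 and miR-205-5p had 13 and 15 counts in replicate 2 and none in replicate 8. Of the 7 tested, 4 were lower in replicate 8 by the exact binomial test and none was higher, with total counts and with either other scale, beside 23.5% lower over all names with total counts. The hepatocyte miRNA miR-122-5p had 639 and 688 counts (244 ± 12.3 CPM), below miR-192-5p. Like miR-192-5p it did not pass the test with total counts and was higher in replicate 8 with TMM-scaled sizes and with DESeq2 size factors. The 3 multiciliated miRNAs summed to 12.9 and 11.7 CPM. The 6 blood miRNAs summed to 553 and 399 CPM, almost all from miR-486-5p and miR-150-5p, with miR-144-3p, miR-223-3p and miR-142-3p at 0. All 3 blood miRNAs tested were lower in replicate 8, with log2 ratios of -1.16 for miR-451a, -0.57 for miR-486-5p and -0.31 for miR-150-5p, and the last did not pass with DESeq2 size factors. The mural-cell markers miR-143-3p and miR-145-5p were both lower in replicate 8 on each scale, and their list summed to 835 and 393 CPM. Like the epithelial calls, these blood and mural calls stand beside 23.5% of all names lower with total counts. The labels name the hCMEC/D3 line alone, and whether cells of these types were present was not tested. The source of these marker reads, and any part of it in the members' levels, was not tested either. Fewer cells of a type cannot be told apart from less RNA per cell.

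Further miRNAs linked to p53 were read from a list of 10, and 8 of them were detected. miR-22-3p, a p53-induced miRNA of senescence, was far above all the others at 65104 ± 2302 CPM (SD, n = 2). miR-1246 had 6781 and 3972 counts, and its sequence resembles part of the U2 small nuclear RNA, which can add reads. miR-16-5p had 4144 and 4248 counts and miR-15a-5p 277 and 203. The pair miR-143-3p and miR-145-5p, whose maturation p53 promotes and which are the mural-cell markers above, had 2000 and 871 counts and 271 and 200 counts. miR-107 had 2554 and 2275, and miR-200c-3p 118 and 85. miR-141-3p and miR-605 had none. By the exact binomial test, 1 was higher in replicate 8 (miR-22-3p, log2 ratio 0.07) and 5 were lower. Over all names 10.8% were higher and 23.5% lower. The lower ones of the list were miR-143-3p, miR-145-5p, miR-15a-5p, miR-107 and miR-1246, from -1.20 for miR-143-3p to -0.17 for miR-107. The median log2 ratio of the 8 tested was -0.45, against -0.11 over all 695 names. With TMM-scaled sizes miR-107 did not pass and miR-16-5p was higher, which left 2 higher and 4 lower. miR-34a-5p, higher in replicate 8 under either scale, thus went against most of the list members that passed. With total counts most of all names that passed were lower too, 163 against 75 higher.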

How the data were processed

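The authors deposited 1 table with raw counts per mature miRNA and precursor, and RPM that equal these counts over 1 constant per library (3180045 and 3205752), per the file headers and values. The submitters' processing notes name CASAVA 1.9, FastQC, cutadapt, Bowtie 0.12.7 and build hg19. The counter and the miRBase release are not given in the sources used here. Members and lists were chosen with earlier results of these data known.

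For each mature name the entry with the highest mean count was kept, and CPM were taken on the resulting totals. Intervals are 95% Poisson for levels, Wilson for shares and Clopper-Pearson for ratios, with 0.5 counts added to log2 ratios. With 1 group, no fit between conditions was possible. The exact binomial test (scipy 1.17.1) was run on simulated Poisson counts, in which only chosen names differed between libraries beyond sampling noise. That setting is unlike these libraries, so it does not show how far the calls hold here. edgeR 4.0.16 (TMM) and DESeq2 1.42.0 gave alternative library scales. Positions come from GRCh37 with GENCODE 44. The libraries differed beyond sampling noise (chi-square 60.5 per degree of freedom), so they are not the same counts deposited under 2 names. Whether they share a library preparation or are separate cultures is not shown by this. Named miRNAs were all members, 1 nearest non-member for each detected member, non-members with a member's seed, and the lists, of which 1 is not reported here. Names without an arm in the table (miR-605, miR-215) were taken as listed.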

Additional observations from a re-analysis of the deposited data

How the results depend on the processing

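Of 90 recomputed values 80 stayed with the reported value, and of the 66 that use both libraries 56 did. Only log2 ratios, between libraries or between partner hairpins, could be marked as reversed, and none was. The 24 values without 1 library are bound to lie within 1 SD of a mean of 2 wherever a level, share or ratio is reported, so they show nothing about stability. Over them the miR-34 level ranged from 73.5 to 82.9 CPM and detection from 6 to 7 names. The summed levels moved with the denominator. For miR-34 the level was 66.9 CPM with all entries summed, 66.7 on the deposited RPM scale and 69.0 with detected arms alone, against 78.2 reported. For the miR-192 group it was 427 CPM with all entries summed and 391 on the RPM scale, against 458. These shifts follow from the larger totals and from leaving out arms. At 100 counts in each library 3 names were detected. Adding 0.5 counts to each arm gave a 3p share of 93.7% for miR-34b, in place of 100%. miR-192-5p passed the between-library test with TMM sizes, with DESeq2 size factors (adjusted p = 1.59e-04) and among names with at least 100 summed counts (0.0341), by the exact binomial test, and did not pass without a filter (0.0874) or with entries summed (0.0739). miR-34a-5p passed in all 5 alternatives, and miR-34c-3p in the 4 that tested it. No paired analysis was possible because there is 1 group.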
